A study of Mus musculus with 21 samples.

Results

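The levels of 5 genes that mark C-low-threshold mechanoreceptors, Slc17a8, Tafa4, Cdh9, Gfra2 and Th, were followed through 21 RNA sequencing libraries of mouse dorsal root ganglia, the swellings on the spinal nerves that house the cell bodies of sensory neurons. The genes were taken by name, and all 5 were among the 24381 genes present in both deposited count tables. Tmem45b was floxed in every mouse, either without Cre (flox) or with Mrgprd-cre (cKO), in which Cre recombinase is driven from Mrgprd, a receptor gene of nonpeptidergic nociceptors. Deletion was thus limited to cells in which Mrgprd drives Cre. Untreated ganglia came as a set named LDRG (3 flox and 3 cKO libraries) and a set named con/ko (3 flox and 4 cKO libraries). A further 4 flox and 4 cKO libraries came from a CFA model, an abbreviation the labels do not spell out and which usually means complete Freund's adjuvant, injected to cause inflammation. The labels give no age or strain, and do not state whether each library is a different mouse, so the p-values below measure only the spread among these samples, which may in part be technical.

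C-low-threshold mechanoreceptors are sensory neurons with unmyelinated axons that end around hairs and respond to slow, gentle touch. In the ganglia of adult mice they are set apart from other small neurons by the vesicular glutamate transporter VGLUT3, the secreted protein TAFA4 and tyrosine hydroxylase. Gfra2, the receptor for neurturin that works together with the kinase Ret, is shared with the nonpeptidergic neurons that express Mrgprd. Cdh9 encodes a type II classical cadherin, a cell adhesion protein. These libraries hold whole ganglia, in which fewer cells of a type and less RNA per cell cannot be told apart, and in which the cells that gave the reads are not seen.

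The con/ko libraries also carry a letter C or L in their names, whose meaning the labels do not give: flox replicate 4 and cKO replicates 4, 5 and 6 are C, and flox replicates 5 and 6 and cKO replicate 7 are L. A second letter is F for flox replicates 4 and 5 and cKO replicates 4 and 5, and M for flox replicate 6 and cKO replicates 6 and 7, also unexplained. Xist, expressed from the inactive X chromosome, was 283 to 322 CPM (counts scaled to library size) in the 4 F libraries and at most 0.21 CPM in the 3 M libraries. The letters C and L also set the libraries apart. The summed level of 10 Hox genes of groups 9 to 11, which are expressed in the posterior part of the body axis, was 8.57 to 14.2 CPM in the 4 C libraries and 114 to 130 CPM in the 3 L libraries, beside group means of 139 to 153 CPM in the LDRG and CFA libraries. A list of 8 skeletal muscle genes summed to 366 to 758 CPM in con/ko flox and 7.57 to 17.0 CPM in con/ko cKO libraries, so that muscle RNA moved with genotype there. Tmem45b itself was 124 to 145 CPM in LDRG flox and 59.7 to 72.4 CPM in LDRG cKO libraries, and 148 to 179 against 68.6 to 88.2 CPM in the con/ko set. It did not follow the labels in the CFA libraries. There it was 65.5, 115, 136 and 80.0 CPM in flox and 108, 105, 67.7 and 62.6 CPM in cKO. Every direction drawn below between CFA genotypes, or between CFA and LDRG libraries of a genotype, is therefore that of libraries labelled flox and cKO. Total counts per library ran from 53.4 M to 72.5 M reads, and counts differed between replicates by more than sampling noise in all 27 pairs.

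All 5 genes were well covered, the lowest count behind any value being 575 reads, for Cdh9. Per kilobase of exon, over all 21 libraries, Gfra2 had the highest mean level at 46.3 CPM per kilobase, followed by Th at 26.5, Tafa4 at 7.59, Slc17a8 at 3.97 and Cdh9 at 3.47. Gfra2 lay above Th, Th above Tafa4 and Tafa4 above Slc17a8 in 21 of 21 libraries. The lowest pair was less clear: Slc17a8 exceeded Cdh9 in 16 of 21 libraries, and their ranges, 2.87 to 6.18 and 2.73 to 5.07 CPM per kilobase, overlapped.

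Positions are from the GENCODE vM21 annotation of mm10, and each interval spans the exons, introns and UTRs of a protein-coding gene. Slc17a8 lies on the minus strand of chromosome 10 (89574020 to 89621253), Tafa4, listed there as Fam19a4, on the minus strand of chromosome 6 (96831203 to 97060413), and Cdh9 on the plus strand of chromosome 15 (16728756 to 16857094). Gfra2 lies on the plus strand of chromosome 14 (70890120 to 70979838) and Th on the minus strand of chromosome 7 (142892752 to 142931128). The antisense gene Gm49127 shares exon sequence with Cdh9, and whether counting used strand is not stated, so reads of these 2 genes cannot be told apart.

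For Slc17a8, Tafa4 and Th, the 3 genes whose con/ko genotype estimates given below lie farthest from 0, the stretch before the RefSeq start is shown, from the RefSeq promoter table on GRCm38.p6, written 5' to 3' on the strand of the gene and ending just before the first exon there. For Th this is the first exon of the shorter of its annotated protein-coding transcripts. A longer one starts upstream at the outer end of the interval given above, so the Th stretch lies inside an intron of it. The 250 bases before each start were searched on both strands for 5 motifs, and matches are in capitals. The core bound by RUNX factors was searched as TGTGGT. The cyclic AMP response element (CRE) was searched as TGACGTCA. The TATA box was searched as TATAAA, and the GC box as GGGCGG. The last motif was the CCAAT box.
Slc17a8, chr10:89621254-89621499: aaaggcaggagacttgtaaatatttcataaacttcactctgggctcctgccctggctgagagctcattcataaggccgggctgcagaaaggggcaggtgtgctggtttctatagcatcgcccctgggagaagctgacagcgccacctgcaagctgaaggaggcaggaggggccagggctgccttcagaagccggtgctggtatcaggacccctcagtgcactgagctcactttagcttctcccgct
Tafa4, chr6:97060414-97060661: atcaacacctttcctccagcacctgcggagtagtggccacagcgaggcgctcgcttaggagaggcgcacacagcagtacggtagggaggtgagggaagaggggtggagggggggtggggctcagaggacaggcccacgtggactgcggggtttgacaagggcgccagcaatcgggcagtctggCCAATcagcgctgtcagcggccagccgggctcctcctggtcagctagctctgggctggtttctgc
Th, chr7:142900015-142900245: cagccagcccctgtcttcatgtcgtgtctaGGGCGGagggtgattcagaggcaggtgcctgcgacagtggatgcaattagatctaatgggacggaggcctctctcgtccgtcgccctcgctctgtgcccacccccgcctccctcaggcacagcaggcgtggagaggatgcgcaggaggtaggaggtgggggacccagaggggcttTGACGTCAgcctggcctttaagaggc
For Cdh9, whose annotated first exon covers most of the window, 30 bases around its match are given instead.
Cdh9, chr15:16728829-16728858: gcggaatggaagCCAATcagagagttcctt

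Gfra2 has no entry in that table. Th, the only 1 of the other 4 genes with a CRE, has it 45 to 38 bases before the start, a palindrome that also reads TGACGTCA on the other strand, and 1.55% of 32851 promoters of the same length hold that motif. Its GC box lies 220 to 215 bases before the start, a motif in 32.7% of promoters. Tafa4 and Cdh9 share a CCAAT box at a like distance from the RefSeq start, 67 to 63 and 74 to 70 bases before it, and 33.8% of promoters hold one. By the GENCODE annotation the Cdh9 match lies inside the gene, after its start at 16728756, and not before it. None of the 4 windows held the TGTGGT core, which 14% of promoters have, or TATAAA, which 12.4% have, and the Slc17a8 window held none of the 5 motifs. These are matches of letters in these windows only.

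**Figure D1:**
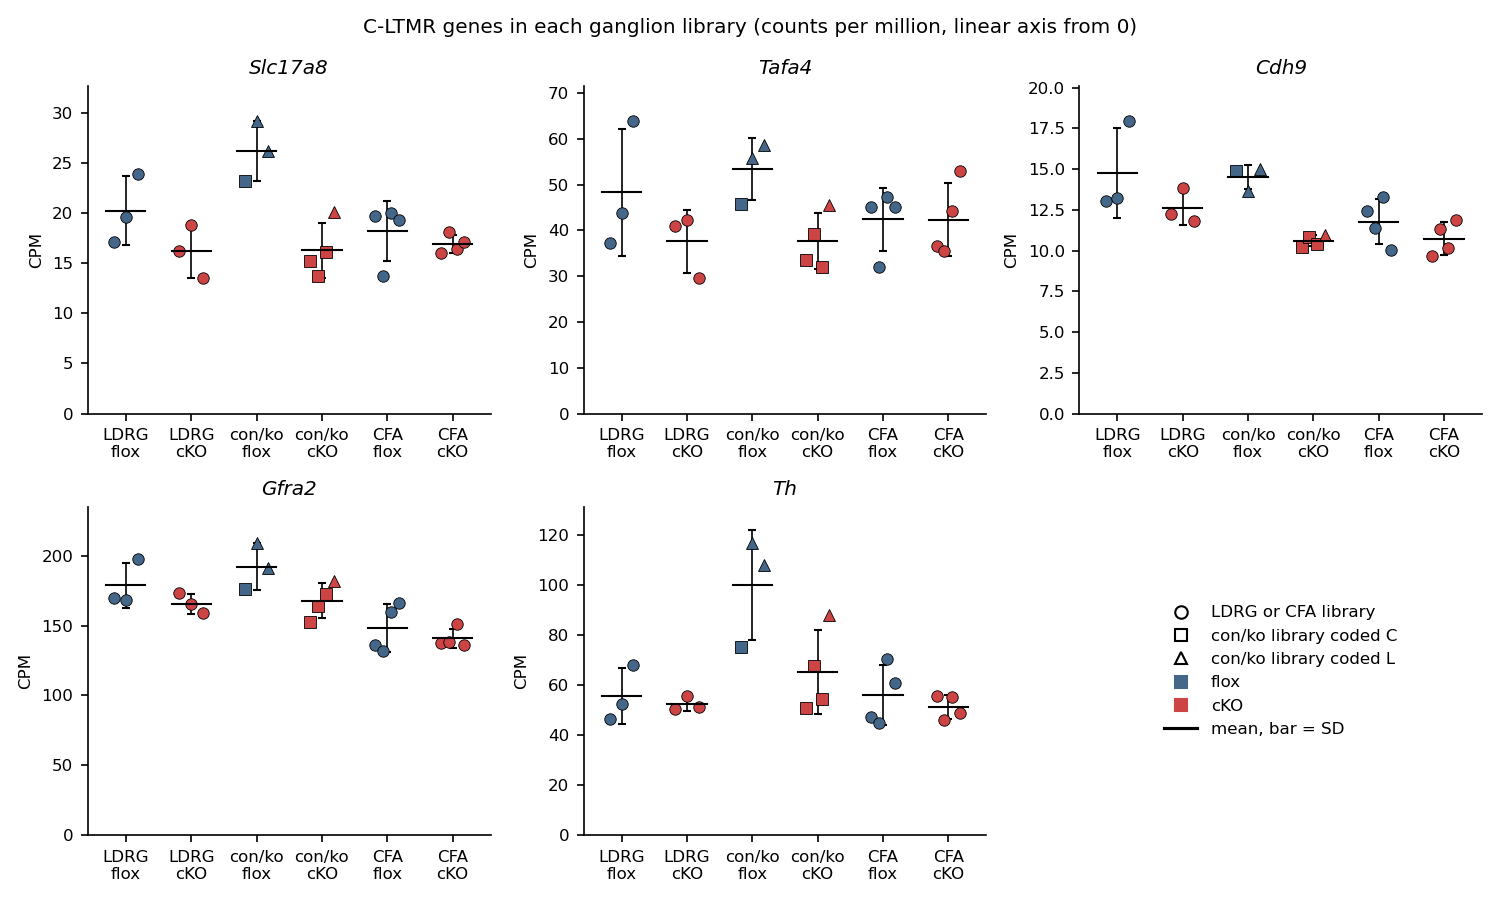
CPM of each gene (linear axis from 0) in every library of the 6 groups, blue for flox and red for cKO, with squares for con/ko libraries coded C and triangles for those coded L; lines are means and bars are SD. In the con/ko set every cKO library lies below every flox library for Slc17a8, Tafa4 and Cdh9. The C-coded libraries are the lowest of their genotype in that set for Slc17a8, Tafa4, Gfra2 and Th, as for 20.3% of genes tested.

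The first question was whether untreated ganglia with Mrgprd-cre differ from flox ganglia in these genes. Over the 13 untreated libraries, with name set as a term, all 5 estimates lay below 0 and none passed the test (edgeR quasi-likelihood test, Benjamini-Hochberg adjustment over all genes). Only 0.00599% of the 16706 genes tested did, namely Tmem45b alone. The difference in cKO against flox was -0.52 on the log2 scale for Slc17a8 (SE 0.12, adjusted p = 0.646), -0.44 for Tafa4 (SE 0.13, adjusted p = 0.662), -0.35 for Cdh9 (SE 0.08, adjusted p = 0.646), -0.37 for Th (SE 0.16, adjusted p = 0.693) and -0.16 for Gfra2 (SE 0.05, adjusted p = 0.662). The median of the 5 was -0.37, beside 0.00 over all genes tested, of which 50.6% were negative. DESeq2, run on the same libraries, called Slc17a8 (-0.51, adjusted p = 0.0339) and no other of the 5, beside 0.241% of genes. Without the 4 C-coded libraries all 5 estimates stayed negative, but Th moved to -0.17 (SE 0.11, adjusted p = 0.881, edgeR) and the others to between -0.12 and -0.36.

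**Figure D2:**
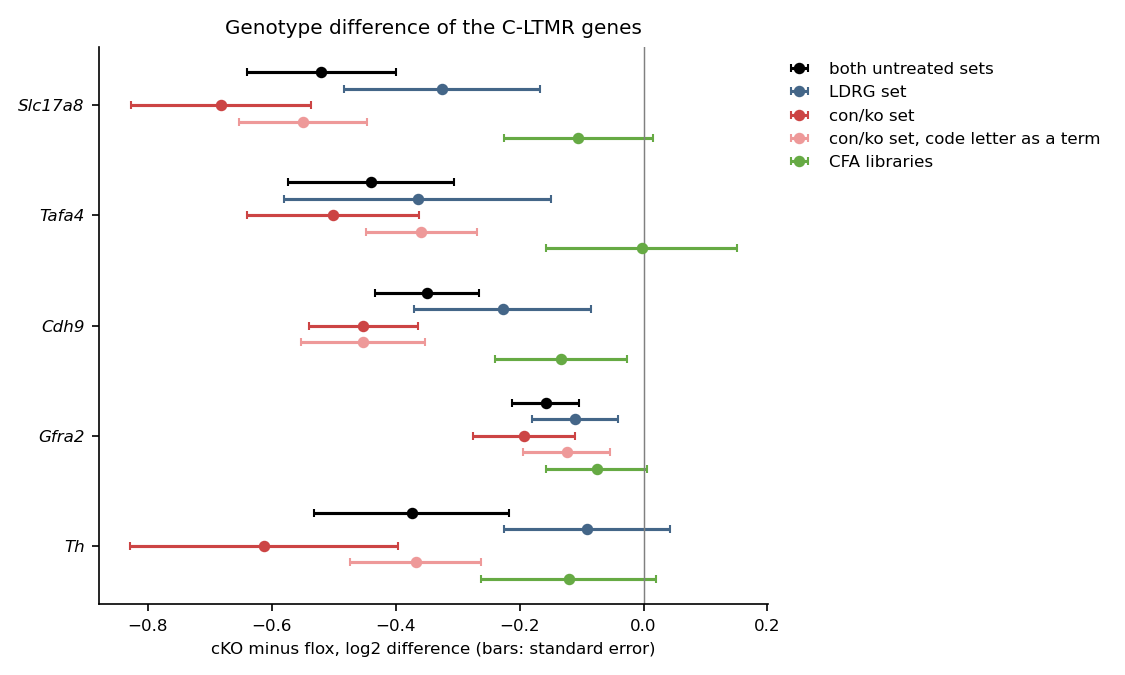
Log2 difference of cKO minus flox for each gene (x axis) with its standard error, in both untreated sets together, in each set alone, in the con/ko set with the code letter as a term, and in the CFA libraries. Points for the con/ko set lie farthest from 0, those for the CFA libraries closest for Slc17a8, Tafa4, Cdh9 and Gfra2.

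Slc17a8, which encodes VGLUT3, loads glutamate into synaptic vesicles. In the LDRG set it was 17.1, 19.7 and 23.9 CPM in flox and 16.2, 18.8 and 13.5 CPM in cKO libraries, so that the ranges overlapped through cKO replicate 2. In the con/ko set flox libraries had 23.2 (C), 29.2 (L) and 26.2 CPM (L) and cKO libraries 15.2, 13.7 and 16.1 (C) and 20.1 CPM (L). Every con/ko cKO library was below every flox library, whichever letter it carried. The difference was -0.33 in LDRG (SE 0.16, adjusted p = 0.991, edgeR) and -0.68 in con/ko libraries (SE 0.14, adjusted p = 0.235, edgeR).

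Tafa4 encodes a secreted protein of the TAFA family. Its LDRG values were 37.3, 43.8 and 63.9 CPM in flox and 40.9, 42.2 and 29.7 CPM in cKO, with flox replicate 3 far above the other 5 libraries. In con/ko flox it was 45.7 (C), 55.8 (L) and 58.6 CPM (L), and in con/ko cKO 33.6, 39.2 and 32.1 (C) and 45.6 CPM (L). The highest cKO library, coded L, came just under the lowest flox library, coded C. The difference was -0.36 in LDRG (SE 0.22, adjusted p = 0.991, edgeR) and -0.50 in con/ko libraries (SE 0.14, adjusted p = 0.492, edgeR).

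Cdh9 behaved differently with respect to the letters. Its LDRG values were 13.05, 13.2 and 17.9 CPM in flox and 12.2, 13.8 and 11.8 CPM in cKO, again with flox replicate 3 apart. In the con/ko set it was 14.9 (C), 13.7 (L) and 15.01 CPM (L) in flox and 10.2, 10.8, 10.4 (C) and 10.9 CPM (L) in cKO libraries. The C-coded flox library lay between its L-coded partners, the L-coded cKO library just above the highest C-coded one, and the genotypes did not overlap. The con/ko difference of -0.45 (SE 0.09) had the lowest adjusted p of the 5 in that set, 0.183 by edgeR, and the LDRG difference was -0.23 (SE 0.14, adjusted p = 0.991).

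Gfra2, the neurturin receptor, was the most abundant member and the least spread. It was 170, 169 and 197.5 CPM in LDRG flox and 173, 166 and 159 CPM in LDRG cKO, where the ranges overlapped. In con/ko flox it was 176.5 (C), 210 (L) and 191 CPM (L), and in con/ko cKO 153, 164 and 172.5 (C) and 182 CPM (L). Only the L-coded cKO library reached the flox range. The difference was -0.11 in LDRG (SE 0.07, adjusted p = 0.991, edgeR) and -0.19 in con/ko libraries (SE 0.08, adjusted p = 0.752, edgeR).

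Th encodes tyrosine hydroxylase, the rate-limiting enzyme of catecholamine synthesis. It was 46.7, 52.4 and 68.3 CPM in LDRG flox and 50.6, 55.5 and 51.3 CPM in LDRG cKO, with the cKO libraries inside the flox range. In con/ko flox it was 75.1 (C), 117 (L) and 108 CPM (L), and in con/ko cKO 51.1, 67.6 and 54.4 (C) and 88.2 CPM (L). All 3 L-coded libraries and the C-coded flox library lay above each of the LDRG and CFA libraries, the highest of which had 70.5 CPM. The difference was -0.09 in LDRG (SE 0.13, adjusted p = 0.991, edgeR) and -0.61 in con/ko libraries (SE 0.22, adjusted p = 0.680, edgeR).

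None of the 5 passed in the LDRG set, where 0.0187% of genes did, or in the con/ko set, where 0.243% did. LDRG flox replicate 3 was the highest library of its set for all 5 genes. Without it the LDRG differences were -0.18 for Slc17a8, -0.11 for Tafa4, -0.06 for Cdh9, -0.03 for Gfra2 and 0.08 for Th, which turned the direction of Th. In the con/ko set 3 of the 5 genes had every cKO library below every flox library, as did 4.29% of genes tested, while in the LDRG set 0 of 5 did, beside 5.11%. DESeq2 called Slc17a8 (-0.69, adjusted p = 0.00366) and Cdh9 (-0.45, adjusted p = 0.000352) in the con/ko set, beside 1.31% of genes, and none in the LDRG set, beside 0.306%. The difference between the sets was itself tested and passed for none of the 5, beside 0.00599% of genes: it was -0.37 for Slc17a8 (SE 0.23), -0.15 for Tafa4 (SE 0.28), -0.24 for Cdh9 (SE 0.16), -0.09 for Gfra2 (SE 0.11) and -0.53 for Th (SE 0.29), each with an adjusted p above 0.99 by edgeR.

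In the con/ko set the letter is unevenly spread, with C in 3 of 4 cKO and 1 of 3 flox libraries. When libraries were set against those of their own letter, every cKO library lay below every flox library for 5 of 5 genes, a pattern that 9.67% of genes tested showed. With the letter as a term, the con/ko difference was -0.55 for Slc17a8 (SE 0.10), -0.36 for Tafa4 (SE 0.09), -0.45 for Cdh9 (SE 0.10), -0.12 for Gfra2 (SE 0.07) and -0.37 for Th (SE 0.11), and none passed by edgeR (adjusted p = 0.176 to 0.885). Th and Gfra2 thus stood over 1.5 times closer to 0 than without the term, and Cdh9 did not move. With the letter F or M as a term instead, an alternative chosen after the data were seen, the 5 estimates lay between -0.21 for Gfra2 and -0.72 for Slc17a8, and none passed. The markers of muscle named above fell with the cKO genotype in this set, 7 of 8 of them passing, and their part in these differences was not tested.

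**Figure D3:**
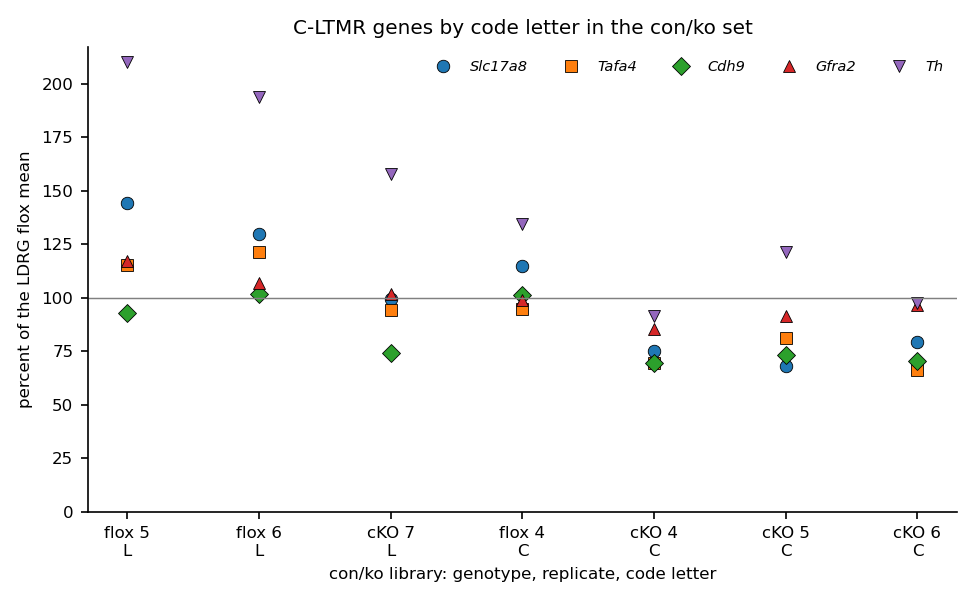
Level of each gene in the 7 con/ko libraries as a percentage of its mean in the LDRG flox libraries (linear axis from 0), L-coded libraries on the left and C-coded on the right. Th ranged from 91.6% in a C-coded cKO library to 210% in an L-coded flox library, while Cdh9 was near 100% in the 3 flox libraries and 69.5% to 74.2% in the 4 cKO libraries.

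The second comparison set the C-coded against the L-coded libraries with genotype as a term. Th had the largest difference of the 5. Its means, in which the genotypes are unevenly mixed, were 62.1 CPM ± 11.3 (SD, n = 4) in C and 104 CPM ± 14.8 (SD, n = 3) in L. With genotype as a term the difference was -0.59 on the log2 scale (SE 0.11, adjusted p = 0.0513, edgeR), just short of the threshold. Without that term it was -0.74. Slc17a8 (-0.34, SE 0.10, adjusted p = 0.148) and Tafa4 (-0.35, SE 0.09, adjusted p = 0.104) lay lower in C by smaller amounts, Gfra2 less so (-0.16, SE 0.07, adjusted p = 0.265), and the Cdh9 estimate was at 0 (0.00, SE 0.10, 95% interval -0.24 to 0.24). None passed by edgeR, beside 1.35% of genes tested. Without con/ko cKO replicate 5, the C library with the highest Th among cKO, Th passed (-0.65, adjusted p = 0.0237) among 110 genes by edgeR. DESeq2 called Th (-0.59, adjusted p = 7.1e-05) and Tafa4 (-0.34, adjusted p = 0.0198), beside 8.93% of genes. With the replicate block, Th moved to -0.34 (SE 0.21) and Gfra2 to -0.05 (SE 0.23). That fit has almost as many terms as libraries and so leaves little from which to estimate the spread. In it cKO replicate 7, the only L-coded cKO library, stands alone in its block. These moves therefore show little about how the estimates depend on replicate. With F or M as a term Th was -0.66 (SE 0.13, adjusted p = 0.275, edgeR), and 14 genes passed in place of 223.

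Every C library lay below every L library for Th and for Gfra2, 2 of the 5 genes, beside 13% of genes tested. Set against the same genotype, C libraries lay below L libraries for 4 of 5 genes, all but Cdh9, as they did for 20.3% of genes. Of the Hox 9 to 11 genes, 10 of 10 had negative estimates in C against L and 6 passed, with a list median of -7.69. Markers of central glia summed to 11.2 to 20.8 CPM in C and 9.61 to 10.98 CPM in L libraries. Most of that sum was Aqp4, with means of 13.5 CPM in C and 10.3 CPM in L. As log2 differences, 4 of 4 were positive (median 4.10), with none passing. Mog and Olig1 averaged only 0.24 and 0.21 CPM over the 21 libraries. Schwann cell genes had 5 of 5 positive estimates in C against L (median 0.49) and satellite glia genes 3 of 3 (median 0.29), with none passing. Peptidergic neuron genes had a median of -0.32 with 4 of 5 negative, and Trpv1, the heat and capsaicin channel, fell (-0.63, SE 0.08, adjusted p = 0.0352, edgeR). The letter F was carried by 3 of 4 C and 1 of 3 L libraries. The part of these markers in the differences was not tested, and the letter and the posterior Hox level cannot be told apart in the 7 libraries.

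Th is also made by sympathetic neurons, so their markers were read in the same libraries. The 7 markers summed to at most 4.32 CPM in any library, in con/ko flox replicate 4, and to group means of 0.15 to 2.18 CPM. Dbh, which turns dopamine into noradrenaline, was at 0 in 16 of 21 libraries, Hand1 in 20 and Hand2 in 21. Slc6a2, the noradrenaline transporter, reached 4.26 CPM in that C-coded library and at most 1.496 CPM in any other con/ko library. Their part in the Th values was not tested. Among 8 genes of catecholamine synthesis and handling, 7 could be tested and none passed in any of the 9 comparisons. Gch1, which makes the cofactor of tyrosine hydroxylase, had a C against L difference of -0.72 (SE 0.15, adjusted p = 0.0628, edgeR).

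**Figure D4:**
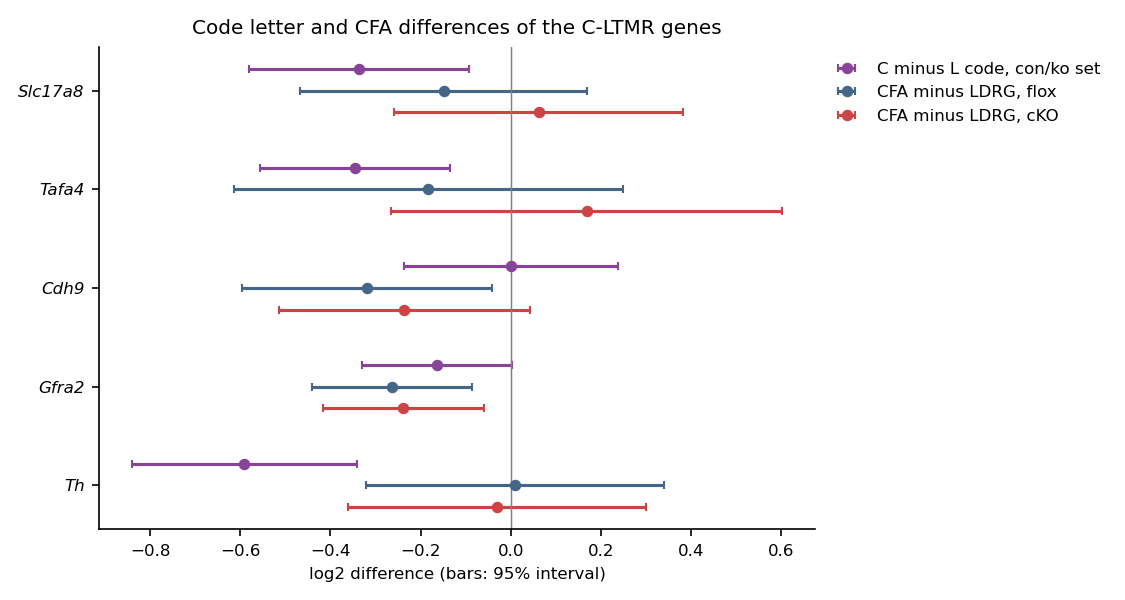
Log2 difference of each gene (x axis, bars for 95% intervals) between C-coded and L-coded con/ko libraries and between CFA and LDRG libraries of each genotype. Th differed most by letter and least by CFA, and the estimate of Gfra2 lay below 0 in all 3 comparisons.

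The third comparison set CFA ganglia against the LDRG libraries of the same table. Gfra2 was the member that differed most evenly. It was 136, 132, 160 and 166 CPM in CFA flox and 138, 138, 151 and 136 CPM in CFA cKO libraries, below every LDRG library of the same genotype in both. It was the only 1 of the 5 genes to do so, beside 10.6% of genes tested in flox and 9.84% in cKO. The difference was -0.26 in flox (SE 0.08, adjusted p = 0.0725) and -0.24 in cKO (SE 0.08, adjusted p = 0.131), neither passing by edgeR. The flox difference passed without CFA flox replicate 4 (-0.32, adjusted p = 0.0394), among 918 genes by edgeR, and in DESeq2 (-0.27, adjusted p = 0.0262), beside 11.6% of genes. The CFA labels, which Tmem45b did not follow, underlie these comparisons. CFA flox replicate 4 (Tmem45b 80.0 CPM) had Gfra2 at 166.27 CPM, above LDRG cKO replicates 2 (165.7 CPM) and 3 (158.84 CPM). CFA flox replicate 1 (Tmem45b 65.5 CPM) and CFA cKO replicates 1 and 2 (108 and 105 CPM) had Gfra2 below every LDRG library.

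Cdh9 was 12.4, 11.4, 13.3 and 10.1 CPM in CFA flox and 9.66, 11.3, 10.1 and 11.8 CPM in CFA cKO libraries. In each genotype 3 of the 4 CFA libraries lay below the lowest LDRG library, with differences of -0.32 in flox (SE 0.13, adjusted p = 0.154) and -0.24 in cKO (SE 0.13, adjusted p = 0.327) by edgeR. Slc17a8 was 19.7, 13.7, 20.05 and 19.3 CPM in CFA flox and 16.0, 18.1, 16.5 and 17.1 CPM in CFA cKO. Apart from flox replicate 2, these libraries stood within the LDRG range of their own genotype. Its differences were -0.15 (SE 0.15) in flox and 0.06 (SE 0.15) in cKO. Without LDRG flox replicate 3, the highest LDRG library for all 5 genes, the flox differences were -0.15 for Cdh9, -0.01 for Slc17a8 and -0.19 for Gfra2.

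Tafa4 was 45.2, 32.1, 47.3 and 45.1 CPM in CFA flox and 36.7, 35.6, 44.3 and 52.9 CPM in CFA cKO libraries. Flox replicate 2 was again the lowest, and the genotypes overlapped widely. Th was 47.4, 44.97, 70.5 and 60.9 CPM in CFA flox and 55.5, 45.9, 55.5 and 48.9 CPM in CFA cKO, which overlap the LDRG values. Its differences from LDRG were 0.01 in flox (SE 0.15, 95% interval -0.32 to 0.34) and -0.03 in cKO (SE 0.15, 95% interval -0.36 to 0.30), and those of Tafa4 were -0.18 (SE 0.20) and 0.17 (SE 0.20).

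None of the 5 passed in either genotype, although 6.82% of genes did in flox and 2.61% in cKO. The general sensory neuron genes were lower in CFA flox, 9 of 9 negative with a median of -0.15 and Tubb3 passing, and when counts were scaled to them in place of all genes (an alternative chosen after the data were seen) Gfra2 moved to -0.12 in flox and -0.13 in cKO. That scaling moved the median of all genes by over 0.1, to 0.14 in flox and 0.10 in cKO, and split the genes passing in flox into 2200 higher and 148 lower, against 626 and 507. Red cell genes rose in CFA libraries of both genotypes, 4 of 4 passing in each. Peptidergic neuron genes had 5 of 5 negative estimates in flox (median -0.48), where the neuropeptide genes Calca, Tac1 and Adcyap1 fell, and 5 of 5 in cKO (median -0.22), where Adcyap1 fell. Of 3 satellite glia genes, the potassium channel gene Kcnj10 and the glutamine synthetase gene Glul fell in flox, and Fabp7, a fatty acid binding protein, rose in cKO. The part of these lists in the Gfra2 and Cdh9 values was not tested. Xist was at least 283 CPM in the 8 CFA libraries and at most 0.33 CPM in the 6 LDRG libraries, so CFA and sex cannot be told apart in these differences.

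Within the CFA libraries, those labelled cKO differed from those labelled flox by -0.11 for Slc17a8 (SE 0.12), 0.00 for Tafa4 (SE 0.15), -0.13 for Cdh9 (SE 0.11), -0.08 for Gfra2 (SE 0.08) and -0.12 for Th (SE 0.14). The genotypes overlapped for all 5, and 0 of 5 had every cKO library below every flox library, beside 1.61% of genes tested. None passed by edgeR, where 0% of the 16116 genes tested did, with 799 genes at an unadjusted p under 0.05 and 18 called by DESeq2. The 95% interval reached -0.38 for Slc17a8 and -0.44 for Th, so that differences of the size seen in the LDRG set lie inside it. The change of the genotype difference with CFA, tested as an interaction within the table, passed for none of the 5 and for 0% of 16605 genes (840 at an unadjusted p under 0.05, 23 by DESeq2). It ranged from -0.04 for Th (SE 0.22) to 0.35 for Tafa4 (SE 0.28).

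The genes moved together to differing degrees. After the mean of each of the 6 groups was taken off, the Pearson correlation of log2 CPM over the 21 libraries was highest between Gfra2 and Th (0.81) and between Slc17a8 and Tafa4 (0.75), and lowest between Cdh9 and Gfra2 (0.12). The C and L libraries remain mixed within the con/ko groups in this measure, and all genes of a library share its tissue and depth, so the values are descriptions only. The ratio of Tafa4 to Slc17a8 in CPM had group means of 2.04 to 2.51. In single libraries it ran from 1.91 in con/ko flox to 3.09 in CFA cKO. The ratio of Th to Slc17a8 was 2.75 ± 0.10 (SD, n = 3) in LDRG flox and 3.29 ± 0.44 (SD, n = 3) in LDRG cKO libraries. In the con/ko set it was 3.79 ± 0.48 (SD, n = 3) in flox and 4.01 ± 0.77 (SD, n = 4) in cKO libraries. CFA libraries had means of 3.09 in flox and 3.06 in cKO.

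Among 13579 other genes with a mean of at least 1 CPM, those most like the average of Slc17a8, Tafa4, Cdh9 and Gfra2 by the same measure were Rgs5 (0.90), a regulator of G protein signalling also used as a pericyte marker, Scn3b (0.87), a sodium channel beta subunit, Paqr5 (0.85), Npy2r (0.84), a neuropeptide Y receptor, Cacna1i (0.83), a T-type calcium channel subunit, and Cyp4f39 (0.83). Those most like Th were Tubb2b (0.90), Cdh1 (0.89), which encodes E-cadherin, and Rgs4 (0.88). With the average of the 4 genes, Zfp521 had a value of 0.57, Mrgprd 0.35, Piezo2 0.35 and Tmem45b 0.04.

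Other genes known from C-low-threshold mechanoreceptors were Zfp521, a zinc finger protein, the mechanically gated channel Piezo2, the T-type calcium channel Cacna1h, and the transcription factors Bhlha9, Pou4f2 and Runx1. Of these 6, 0 passed in any of the 9 comparisons. In untreated ganglia 6 of 6 estimates were negative with a median of -0.17, from -0.07 for Cacna1h (SE 0.10) to -0.27 for Bhlha9 (SE 0.12). Zfp521 was -0.28 in the con/ko set (SE 0.07, adjusted p = 0.349, edgeR), where 6 of 6 were negative with a median of -0.25. In C against L 4 of the 6 estimates were negative and 2 positive, with a median of -0.16. Runx1 was -0.28 there (SE 0.08, adjusted p = 0.128, edgeR).

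Nonpeptidergic genes that include Mrgprd had 8 of 8 negative estimates in untreated cKO ganglia with a median of -0.15. Genes of NP3 neurons, which include Osmr and Il31ra, had 3 of 4 negative with a median of -0.19. Peptidergic neuron genes had a median of -0.03, genes of sensory neurons in general 0.08 and those of large A-fibre neurons 0.07. None of the genes in these lists passed. Relatives of the 5 genes gave other values. Slc17a6 and Slc17a7, the other vesicular glutamate transporters of the ganglion, were at -0.06 (SE 0.05) and 0.32 (SE 0.09), 4 other TAFA genes had a median of 0.03 and 11 other type II cadherins one of 0.04. Of 8 ligands and receptors of the GDNF family, which includes neurturin, 4 were negative, Ret being at -0.05 (SE 0.06). None of these relatives passed in untreated ganglia.

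**Figure D5:**
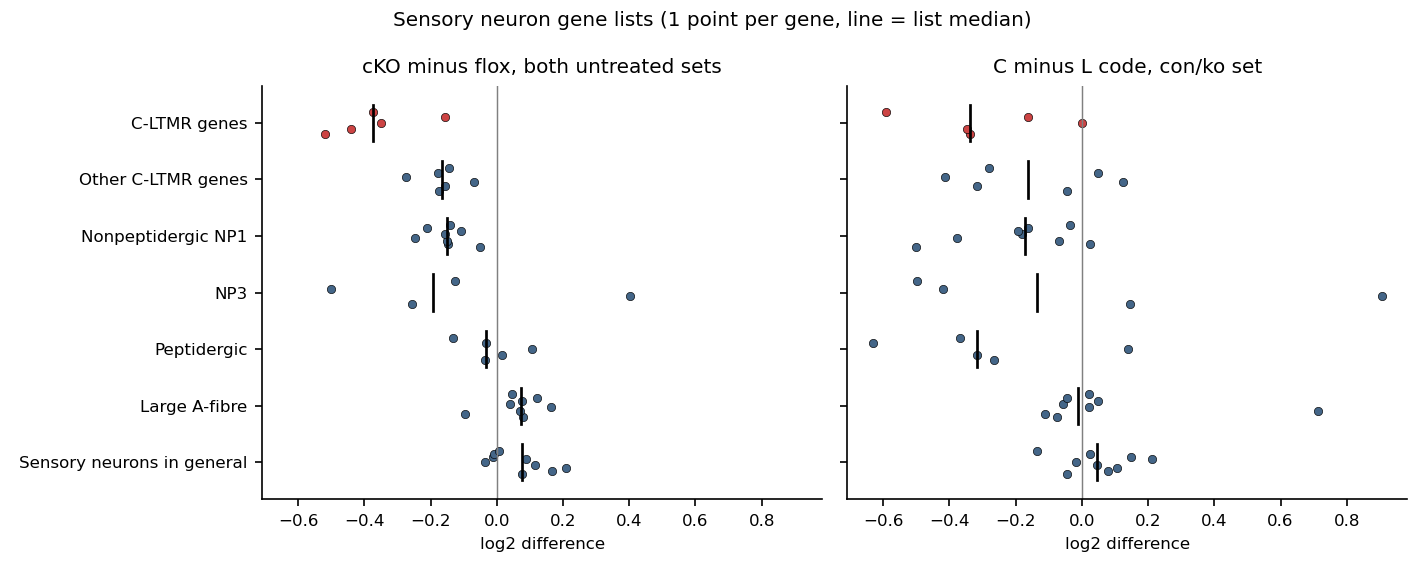
Log2 difference of every gene (1 point each) in 7 lists of sensory neuron genes, for cKO minus flox in untreated ganglia and for C minus L in the con/ko set, with the median of each list as a line. The 5 C-low-threshold mechanoreceptor genes, in red, have medians of -0.37 and -0.34, and genes of sensory neurons in general have medians of 0.08 and 0.05. For C minus L the peptidergic list, at -0.32, lies about as far from 0 as the 5 genes.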

How the data were processed

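Poly-A RNA of dorsal root ganglia was sequenced in 21 libraries as paired reads, per the labels. The authors deposited unnormalized counts of reads for each gene, in a table of 14 libraries (LDRG and CFA, 24524 genes) and one of 7 (con/ko, 24512 genes). Reads were processed with fastp 0.23.2, BWA 2.2.1, SAMtools 1.14 and DESeq2 1.40.2 on mm10, per the submitters' processing notes; no read counter is named in these notes. Titles were used for genotype, since the labels' genotype field names the Cre line throughout.

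Counts were filtered with filterByExpr by group (at least 10 in a library, 15 in total) and scaled by TMM, and the quasi-likelihood F test of edgeR 4.0.16 was run in R 4.3.3, with Benjamini-Hochberg adjustment over all genes tested and a threshold of 0.05. CPM values are counts on a single TMM scale over 21 libraries and the genes both tables share. Fits were tested on simulated data. Alternatives were DESeq2 1.42.0, RLE size factors, a replicate block, a filter at a mean of 5 CPM or at 1 count only, code letter or name set terms, a shared spread, leaving out each library or the C-coded ones, and, added after the data were seen, scaling to 9 neuron genes and an F or M letter term. Named genes are the 5 genes, list members that passed or otherwise up to 3 of the highest mean CPM, and the genes of like pattern; Xist, Gch1, Bhlha9, Pou4f2, Runx1, Slc6a2, Dbh, Hand1 and Hand2 were added after their values were seen. The genes and lists were chosen with earlier results of these data known. All 5 genes passed the count filter in every fit.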

Additional observations from a re-analysis of the deposited data

Results flagged for a closer look

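In groups of 4 libraries, a library was singled out where its gap to the nearest other exceeded Dixon's 95% critical value, which chance alone does in about 1 in 20 groups. Slc17a8 was low in CFA flox replicate 2, at 13.7 CPM against 19.3 to 20.05 CPM in the other 3 libraries. Tafa4 was low in the same library, at 32.1 CPM against 45.1 to 47.3 CPM. Gfra2 was high in CFA cKO replicate 3, at 151 CPM against 136 to 138 CPM.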

How the results depend on the processing

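Of 800 member values under 160 alternative fits, 763 kept their sign and 9 passed the threshold. The calls gained were those of DESeq2 (1 member in untreated ganglia, 2 in the con/ko set, 2 in C against L, 1 in CFA flox), 1 in C against L with no genotype term (Th -0.74, adjusted p = 0.0439), and 0 to 1 on leaving out single libraries in C against L and in CFA flox. Cdh9 in C against L turned to -0.00020 with no filter beyond 1 count, -0.013 with a mean of at least 5 CPM, -0.024 when scaled to neuron genes and -0.18 with no genotype term. Scaling to neuron genes also turned Gfra2 in the interaction of genotype and CFA (-0.0096) and Th for CFA in cKO (0.074), and the replicate block turned Th for CFA in flox (-0.0045).

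Leaving out single libraries turned values in these ranges: Th in LDRG (-0.20 to 0.083), Tafa4 in genotype by name set (-0.40 to 0.017), Cdh9 in C against L (-0.056 to 0.065), Tafa4 (-0.13 to 0.067) and Th (-0.21 to 0.0064) between CFA genotypes, Cdh9 (-0.082 to 0.17), Gfra2 (-0.051 to 0.083) and Th (-0.21 to 0.093) in genotype by CFA, Th (-0.12 to 0.18) and Tafa4 (-0.35 to 0.072) for CFA in flox, and Th (-0.069 to 0.020) and Slc17a8 (-0.052 to 0.19) for CFA in cKO.

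Counts of genes passing moved more. DESeq2 called 40 in untreated ganglia, 49 in LDRG, 216 in con/ko, 42 for genotype by name set, 1471 in C against L, 18 between CFA genotypes, 23 for genotype by CFA, 1928 for CFA in flox and 1292 in cKO. Leaving out single libraries gave 1 to 44, 3 to 11, 19 to 37, 1 to 5, 12 to 536, 0 to 2, 0 to 1, 462 to 1380 and 61 to 725 in the same order. The highest were 44 without LDRG cKO replicate 1, 11 without LDRG flox replicate 3 and 536 without con/ko flox replicate 5, and the lowest for CFA were 462 without LDRG flox replicate 2 and 61 without LDRG cKO replicate 1. The C against L count was 16 with no filter beyond 1 count, 12 with a mean of at least 5 CPM, 14 with the F or M letter as a term and 588 with no genotype term; the LDRG count was 0 with no such filter and 0 with the spread shared with CFA libraries; genotype by name set gave 2 with the code letter as a term. Scaling to neuron genes gave 62 in con/ko, 3 for genotype by name set and 2348 for CFA in flox, and moved the median of all genes to -0.15 in con/ko and -0.13 for genotype by name set. The cause of these moves was not tested.

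Replicate numbers were shared between genotypes, but same-numbered libraries correlated at only -0.14 to 0.32. Libraries of different numbers correlated at -0.59 (con/ko flox replicate 4 and cKO replicate 7) to 0.56 (con/ko flox replicate 6 and cKO replicate 7). The numbers were therefore not taken as pairs. With the replicate block, counts were 0 in LDRG, 10 in con/ko, 4 for genotype by name set, 3 in C against L, 738 for CFA in flox and 217 in cKO, and no member passed.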
